A study of Mus musculus with 6 samples.

Results

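The transcripts described here are those of 43 genes of cholesterol and fatty acid metabolism, chosen by gene symbol from the 26286 genes of the count tables, in regulatory T cells (Treg) of the mouse. The choice names enzymes of sterol synthesis, factors that sense sterols, sterol efflux transporters, enzymes of fatty acid synthesis, proteins that store or release triglyceride, enzymes of fatty acid oxidation and fatty acid binding proteins. The rule reads symbols and no measured value. The cells were CD4+ CD25high Treg of C57BL/6 mice in which green fluorescent protein (GFP) reports Blimp-1, the repressor encoded by Prdm1. They were sorted into GFP- and GFP+ cells from spleens and lymph nodes that had been pooled. Sample titles of both populations begin with BlimpHet, which reads as heterozygous for Blimp-1, so GFP- cells carry that genotype as well. The labels name no drug or other treatment and give no age, and the number of mice in a pool is not given in the sources used here. Each population had 3 libraries, numbered here as in the sample titles and called biologically independent by the study. GFP- replicate 20 and GFP+ replicate 19 were made by poly(A) selection, and GFP- replicates 2 and 5 and GFP+ replicates 1 and 4 by a protocol for single cells that was applied to RNA of sorted populations. Where a gene has 3 values per population, they follow the order 20, 2 and 5 for GFP- and 19, 1 and 4 for GFP+ libraries, the poly(A) library first.

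Cells build cholesterol from acetyl-CoA through mevalonate, isoprenoid units and squalene. When sterols are scarce, SCAP carries the SREBP precursors from the endoplasmic reticulum to the Golgi for cleavage, and INSIG holds them back when sterols are plentiful. Fatty acids are built from citrate-derived acetyl-CoA, stored as triglyceride in lipid droplets coated by perilipins, and burned in mitochondria after the carnitine shuttle has moved them inside. In T cells, clonal growth is known to go with lipid synthesis, and Treg are known for their use of fatty acid oxidation. The series title concerns Treg that live in adipose tissue, while the cells sequenced here came from lymphoid organs.

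Library totals were between 15224051 and 17601420 counts with the single-cell protocol and 27221562 and 28354321 counts in the poly(A) libraries. Prdm1, which the sort followed through its reporter, had a log2 fold change of 3.93 ± 0.27 (SE of the fit to all 6 libraries, as for each fold change below). The 8 tested Treg marker genes, of 11 listed, were present in every library, and 1 of them, Ctla4, rose. The other listed ones, Cd3e, Cd3d and Cd3g, had 0 counts in the single-cell protocol libraries. Summed levels of the list were 4764 to 7177 CPM (counts relative to library size after TMM scaling) in GFP- and 4856 to 8578 CPM in GFP+ libraries. Sums of the single-cell protocol libraries rest on fewer genes, here and for the macrophage and cell cycle lists below. Macrophage markers differed between the populations: 13 of 13 tested, of 15 listed, rose, with a median log2 fold change of 6.11. Their summed level was 17.4 to 30.0 CPM in GFP- and 900 to 1788 CPM in GFP+ libraries. Itgam had 0 counts in GFP- replicates 2 and 5, and Cd14 had 0 in GFP- replicate 5. Cell cycle genes rose for 9 of 10 tested, with sums of 75.6 to 218 CPM in GFP- and 466 to 731 CPM in GFP+ libraries. Of the adipocyte markers, Lep was at 0 in all 6 libraries, Adipoq had at most 10 counts, and Lipe, the 1 tested, did not pass. The other lists gave 1 of 2 tested dendritic cell, 1 of 5 B cell, 1 of 4 plasma cell and 1 of 3 erythroid markers higher, 1 endothelial marker higher and 1 lower of 2, and 2 of 4 CD8 T and NK cell markers lower. In bulk RNA, fewer cells of a type and less RNA per cell cannot be told apart.

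In the single-cell protocol table, genes of chromosomes 3, 8 and 9 had almost no counts. Of the genes with at least 100 counts in both poly(A) libraries, all 545 on chromosome 8, all 546 on chromosome 9 and 461 of 462 on chromosome 3 were at 0 in the 4 single-cell protocol libraries. That left 12 of the 43 lipid genes without single-cell protocol counts: Fdps, Elovl6, Acadm, Fabp4 and Fabp5 of chromosome 3, Mvd and Lpl of chromosome 8, Sc5d, Scap and Elovl5 of chromosome 9, and Fads2 and Hmgcs1 of other chromosomes. These 12 are described from the poly(A) pair alone, which has 1 library per population and no replicate check. The other 31 passed the low-count filter and were tested.

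Few lipid metabolism transcripts were called different between GFP+ and GFP- Treg, and for most the difference was bounded at less than 2-fold. Of the 31 tested genes, Plin2 and Dgat1 rose in GFP+ cells, none fell, and 29 did not pass (edgeR quasi-likelihood test with protocol as a covariate, Benjamini-Hochberg adjusted p under 0.05 over all 10523 genes tested). Over all genes tested, 13.5% passed, 9.81% as higher and 3.68% as lower in GFP+ cells, so the 6.45% of lipid genes called higher were no more frequent than the background. The fitted log2 fold changes lay between -0.69 (Sqle) and 1.18 (Plin2). Their median was 0.10, against -0.08 over all genes tested, and 20 were above 0 and 11 below. For 23 of the 31 genes the 95% interval of the log2 fold change lay wholly between -1 and 1. Such an interval was found for 4549 of all 10523 genes tested, and it bounds the difference at 2-fold (1 on the log2 scale) without showing that the populations were alike.

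**Figure D1:**
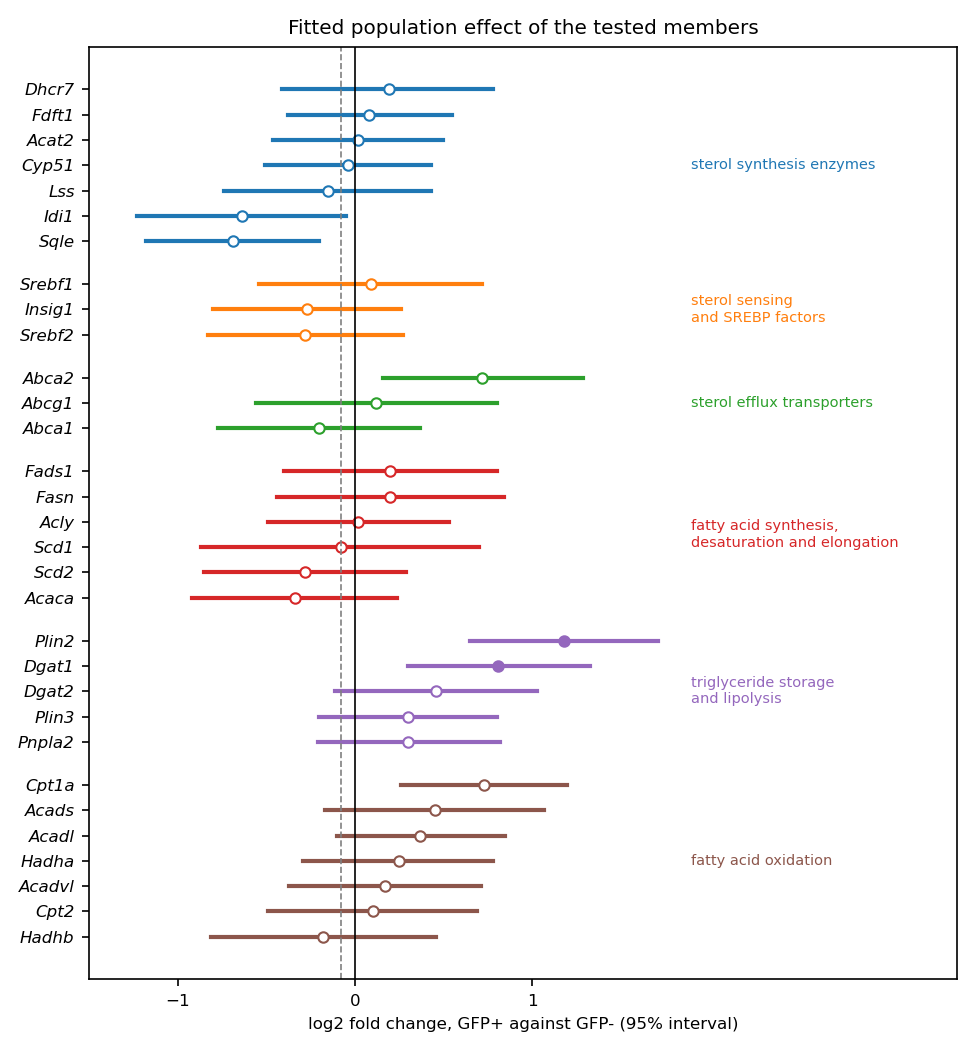
Fitted log2 fold change of the 31 tested lipid genes (GFP+ against GFP-, x axis), 1 row per gene, grouped and coloured by role. Points are edgeR estimates and lines their 95% intervals from 6 libraries, filled points are the genes with an adjusted p under 0.05, the solid line marks 0 and the dashed line the median of all genes tested. Plin2 (1.18) and Dgat1 (0.81) are the 2 filled points, both in the group of triglyceride storage and lipolysis.

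At an unadjusted p under 0.05, 4 genes were higher (Plin2, Dgat1, Cpt1a and Abca2) and 2 lower (Sqle and Idi1). These were 12.9% and 6.45% of the lipid genes tested, beside 15.3% and 11.5% of all genes tested. Without regard to a test, every GFP+ library stood above every GFP- library of its own protocol for 6 genes, the 4 just named with Acadl and Hadha. They made up 19.4% of the lipid genes tested, beside 21.3% of all genes tested. The opposite order held for Sqle, Idi1 and Srebf2, or 9.68% of the lipid genes, beside 19.3% of all genes. Both orders are those of TMM-scaled CPM. As CPM of all counts (relative to the library total), GFP+ replicate 4 exceeded GFP- replicate 5 for Sqle (10.3 and 9.79), Idi1 (4.15 and 3.55) and Srebf2 (46.8 and 43.4). For Hadha, GFP+ replicate 4 then lay below GFP- replicate 2 (108 and 111). Plin2, Dgat1, Cpt1a, Abca2 and Acadl kept their order. DESeq2 on the same counts called Plin2, Dgat1, Cpt1a and Abca2 higher and Sqle lower, and limma-voom called Plin2, Dgat1 and Cpt1a higher and none lower.

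**Figure D2:**
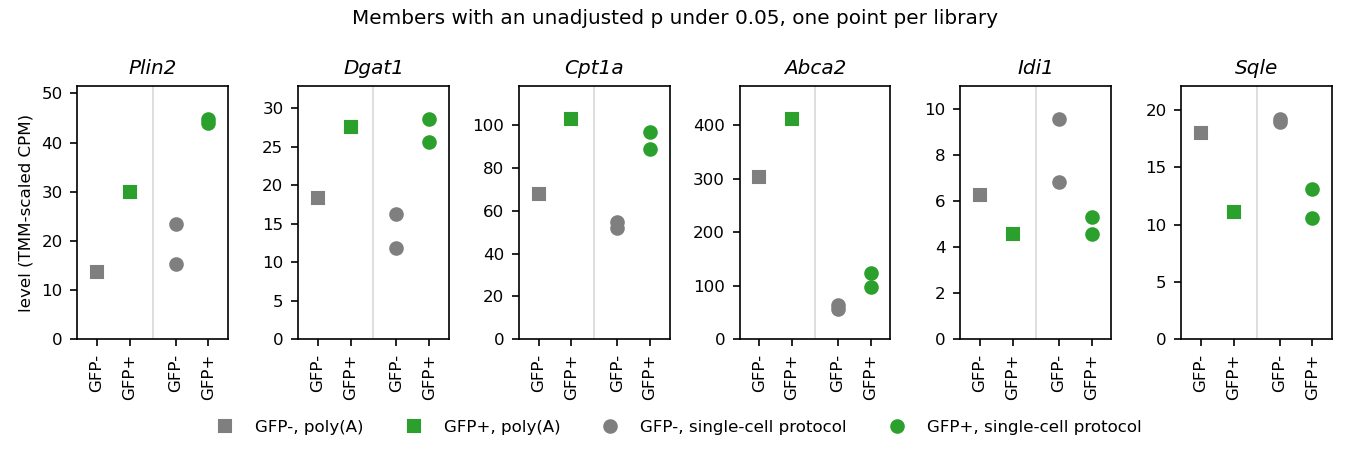
Levels of the 6 lipid genes with an unadjusted p under 0.05, 1 point per library, with the TMM-scaled CPM on the y axis of each panel, which starts at 0. Squares are poly(A) and circles single-cell protocol libraries, grey GFP- and green GFP+. In each of the 4 panels from Plin2 to Abca2 the green points lie above the grey ones of the same protocol, and in the panels of Idi1 and Sqle below them.

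The genes of triglyceride storage and lipolysis held both calls. Of 6 listed genes 5 were tested, 2 rose, none fell and 3 did not pass, with a median log2 fold change of 0.46 and a range of 0.30 to 1.18. Over all genes tested, 9.81% rose and 3.68% fell. In the further list of lipid uptake, droplets and lipolysis given below, none of 7 tested genes passed. The macrophage and cell cycle markers described above rose in the same libraries, and their part in these calls was not tested.

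Plin2 (Entrez 11520, chromosome 4) encodes perilipin 2, a coat protein of lipid droplets found in many cell types, foamy macrophages among them. It stood at 13.6, 15.4 and 23.5 CPM (GFP-) and 30.0, 44.8 and 43.9 CPM (GFP+). All 3 GFP+ libraries lay above all 3 GFP- libraries, whatever the protocol. The log2 fold change was 1.18 ± 0.23 (3 libraries per population; 95% interval 0.65 to 1.71; 2.26-fold), with an edgeR adjusted p of 0.0104. Within the poly(A) pair the log2 ratio was 1.14, and between the means of the single-cell protocol libraries it was 1.19. The adjusted p rose to 0.0974 without GFP- replicate 20, 0.0987 without GFP+ replicate 19, 0.0567 without GFP+ replicate 1, 0.104 in the single-cell protocol libraries alone and 0.398 without the protocol covariate, while the log2 fold change in these fits lay between 1.16 and 1.19.

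Dgat1 (Entrez 13350, chromosome 15) encodes an acyltransferase of the endoplasmic reticulum that makes the last step of triglyceride synthesis. The GFP- libraries had 18.4, 16.3 and 11.9 CPM and the GFP+ libraries had 27.5, 28.6 and 25.6 CPM. The ranges of the populations did not overlap. The log2 fold change was 0.81 ± 0.23 (95% interval 0.30 to 1.33; 1.76-fold), with 0.58 within the poly(A) pair and 0.94 in the single-cell protocol libraries. The edgeR adjusted p of 0.0485 was just under the threshold, and with each of the 6 libraries left out in turn it lay between 0.0675 and 0.219. It was also over the threshold with total counts as the only scaling (0.175), with a stricter filter on low counts (0.0532), without the protocol covariate (0.658) and in the single-cell protocol libraries alone (0.224).

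The other genes of the group had smaller estimates. Dgat2, whose enzyme makes the same product from an unrelated protein family, had a log2 fold change of 0.46 ± 0.25 (edgeR adjusted p = 0.286). Plin3, a perilipin that also exists free in the cytosol, and Pnpla2, the lipase ATGL that starts the breakdown of stored triglyceride, both had 0.30, with adjusted p-values of 0.436 and 0.446. After TMM scaling the lowest GFP+ library of the single-cell protocol lay below the highest GFP- library for all 3 genes. As CPM of all counts it lay above it for all 3: Dgat2 6.90 and 6.13, Plin3 17.2 and 16.4, Pnpla2 41.2 and 35.8.

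RefSeq gives a start-site window for 31 of the 43 lipid genes, and the 250 bases upstream of the start were searched on both strands in build GRCm38.p6, which is not the build of the counts (mm9). Plin2 is shown as the gene with the largest tested difference. Its window, chr4:86670060-86670309 on the minus strand, holds a CCAAT box (CCAAT, or ATTGG on the other strand), set in capitals, that begins 73 bases before the start.
Plin2: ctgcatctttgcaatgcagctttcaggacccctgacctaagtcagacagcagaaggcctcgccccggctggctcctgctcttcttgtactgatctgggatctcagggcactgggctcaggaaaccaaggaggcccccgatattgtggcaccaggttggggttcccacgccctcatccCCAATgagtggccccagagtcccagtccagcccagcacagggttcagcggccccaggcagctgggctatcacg
A CCAAT box was present in 37.5% of the 27025 windows of all genes and in 15 of the 31 lipid gene windows (48.4%). Such a match describes the letters of the window and shows no binding.

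Lpl (Entrez 16956), which completes the storage group, could be read from the poly(A) pair alone. Lipoprotein lipase frees fatty acids from circulating lipoproteins and is known from adipose tissue, muscle and macrophages. It had 10 counts (0.367 CPM of all counts) in GFP- replicate 20 and 254 counts (8.96 CPM) in GFP+ replicate 19. The ratio of the GFP+ to the GFP- library was 24.4, or 4.61 on the log2 scale, with a 95% counting interval of 3.71 to 5.69 that covers counting error in these libraries and no spread between mice. With a pseudocount of 1 CPM the log2 ratio was 2.86. The macrophage markers Vcam1 and Fcgr1, which also lacked single-cell protocol counts, had 95 and 3 counts in the GFP- and 5367 and 294 counts in the GFP+ library of this pair, and their part in the Lpl difference was not tested.

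Fatty acid binding proteins carry fatty acids within the cell. Fabp5 (Entrez 16592), the epidermal form that T cells and macrophages also use, had 176 counts (6.47 CPM of all counts) in GFP- replicate 20 and 380 counts (13.4 CPM) in GFP+ replicate 19. Its log2 ratio was 1.05, with a counting interval of 0.79 to 1.32, or 2.07-fold. Fabp4 (Entrez 11770), the form of adipocytes and macrophages, had 0 and 9 counts, which makes it at least 2.88-fold higher in the GFP+ library when the GFP- library is set to 3 counts, the most that a count of 0 allows, and the 9 counts are taken as exact. Its counting interval for the log2 ratio begins at 0.92. Of the 9 genes with at least 1 CPM in a poly(A) library, Lpl and Fabp5 had a log2 ratio of at least 1 and none had one of -1 or less, beside 12.4% and 5.73% of the 13490 genes of that level. The differences of Fabp4 and Fabp5 have no replicate, and the part of the macrophage markers in them was not tested.

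**Figure D3:**
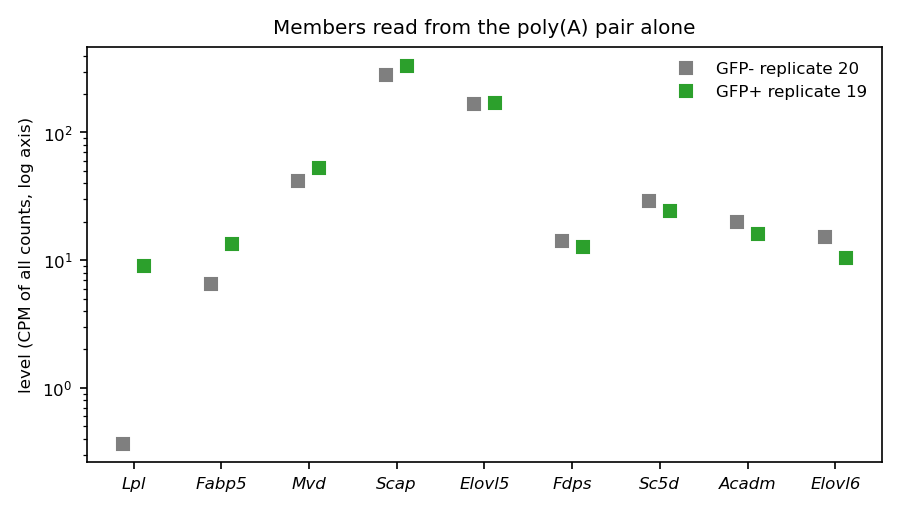
Levels of the 9 lipid genes with at least 1 CPM in a poly(A) library and no single-cell protocol counts, as CPM of all counts on a log axis. Grey squares are GFP- replicate 20 and green squares GFP+ replicate 19, 1 library each and so without error bars. Lpl is the pair set farthest apart (0.367 and 8.96 CPM), and the 2 squares of Elovl5 are level (168 and 169 CPM).

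Enzymes of sterol synthesis showed no called difference. Of 11 listed genes 7 were tested and none passed with edgeR in either direction, while 2 (Sqle and Idi1) had an unadjusted p under 0.05. DESeq2 called Sqle lower and limma-voom called none. The median log2 fold change was -0.04, with a range of -0.69 to 0.19, and for 5 of the 7 the 95% interval lay between -1 and 1.

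Sqle (Entrez 20775, chromosome 15) encodes squalene epoxidase, an oxygen-requiring and rate-limiting step of the sterol part of the pathway. It stood at 18.0, 19.2 and 18.9 CPM (GFP-) and 11.1, 10.6 and 13.1 CPM (GFP+). After TMM scaling the GFP- libraries agreed closely and all exceeded the GFP+ libraries. As CPM of all counts the values were 30.5, 16.2 and 9.79 (GFP-) and 19.2, 7.35 and 10.3 (GFP+). On that scale the GFP- libraries differed widely, and GFP+ replicate 4 lay above GFP- replicate 5. The log2 fold change of -0.69 ± 0.21 (95% interval -1.18 to -0.20) had an edgeR adjusted p of 0.0702 and did not pass, and DESeq2 gave an adjusted p of 0.0229. Within the poly(A) pair the log2 ratio was -0.70 and in the single-cell protocol libraries -0.68.

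Idi1 (Entrez 319554, chromosome 13) encodes the isomerase that interconverts the 5-carbon isoprenoid units. The GFP- libraries had 6.26, 9.56 and 6.84 CPM and the GFP+ libraries had 4.56, 4.58 and 5.29 CPM. Its log2 fold change was -0.64 ± 0.26 (95% interval -1.23 to -0.05) with an edgeR adjusted p of 0.153. The 5 genes left had estimates near 0: Dhcr7, the last step to cholesterol, 0.19, Fdft1, the squalene synthase, 0.08, Acat2, a cytosolic thiolase with the close copy Acat3 in the mouse, 0.02, Cyp51, the lanosterol demethylase, -0.04, and Lss, the lanosterol synthase, -0.15.

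Fdft1 stood at 14.2, 47.9 and 53.0 CPM (GFP-) and 15.2, 47.7 and 58.9 CPM (GFP+). In the gene models of GENCODE M21 its exons share 774 bases with those of Ctsb on the opposite strand, the gene of a lysosomal protease. Ctsb rose with a log2 fold change of 1.91 ± 0.30 (edgeR adjusted p = 0.00334), and whether counting used strand is not given in the sources used here, so reads of these genes may be shared. Other opposite-strand overlaps were found for Acadvl with Dvl2 (976 bases), Cyp51 with Akap9 (166 bases), Srebf1 with Rai1 (109 bases) and Hadha with Garem2 (75 bases), and Fdps shares 1124 bases with Gm43738 on its own strand.

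The 4 sterol enzymes without single-cell protocol counts had small ratios in the poly(A) pair or none. Mvd, which makes isopentenyl diphosphate, had 41.9 CPM of all counts in the GFP- and 53.0 CPM in the GFP+ library (log2 ratio 0.34, counting interval 0.23 to 0.45). Fdps, the farnesyl diphosphate synthase, had 14.1 and 12.7 CPM (-0.15, counting interval -0.36 to 0.06), and Sc5d, a desaturase of the last steps, had 29.2 and 24.4 CPM (-0.26, counting interval -0.41 to -0.11). Hmgcs1, which makes HMG-CoA for the pathway, was listed at 0 in all 6 libraries although other enzymes of the pathway were read. The files do not give the reason, so the 0 is not taken as a measured level.

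Promoter windows of the sterol enzymes were searched as that of Plin2 was. A CCAAT box was present in 7 of the 8 sterol synthesis windows that RefSeq gives (87.5%; Acat2 lacked it), and a GC box (GGGCGG, or CCGCCC on the other strand) in 8 of 8, beside 37.5% and 35.4% of all gene windows. Among the windows of fatty acid oxidation genes 1 of 8 held a CCAAT box, that of Cpt1a, and 6 held a GC box. The core of the sterol regulatory element (CACNCCAC, or GTGGNGTG on the other strand), the kind of site that SREBP factors bind, was found in 6.05% of all windows and in those of Acat2, Hmgcs1 and Insig1.
Idi1 and Insig1 are shown as windows with 2 CCAAT boxes (Idi1, chr13:8885356-8885605, plus strand, the boxes beginning 45 and 14 bases before the start) and with a sterol regulatory element core (Insig1, chr5:28071162-28071411, plus strand, beginning 9 bases before the start), both set in capitals.
Idi1: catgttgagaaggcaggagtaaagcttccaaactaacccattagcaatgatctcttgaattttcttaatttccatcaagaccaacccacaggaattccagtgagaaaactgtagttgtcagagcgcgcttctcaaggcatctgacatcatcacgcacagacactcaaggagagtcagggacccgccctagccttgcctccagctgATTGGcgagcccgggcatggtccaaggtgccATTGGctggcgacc
Insig1: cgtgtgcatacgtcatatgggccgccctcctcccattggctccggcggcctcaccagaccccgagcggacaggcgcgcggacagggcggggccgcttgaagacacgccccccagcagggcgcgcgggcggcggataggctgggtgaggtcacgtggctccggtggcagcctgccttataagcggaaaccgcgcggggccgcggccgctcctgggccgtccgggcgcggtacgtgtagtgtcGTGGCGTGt

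The genes that sense sterols did not pass. Of 4 listed 3 were tested, none was called in either direction by edgeR, DESeq2 or limma-voom, and none had an unadjusted p under 0.05. The median log2 fold change was -0.27, and all 3 intervals lay between -1 and 1. Srebf2, the SREBP gene that acts chiefly on cholesterol synthesis, stood at 387, 62.8 and 83.6 CPM (GFP-) and 362, 52.8 and 59.7 CPM (GFP+). After TMM scaling each GFP+ library was the lower within its protocol, but the log2 fold change of -0.28 ± 0.24 had an edgeR adjusted p of 0.508. Insig1, itself a known target of SREBP, had -0.27 ± 0.23 (adjusted p = 0.510) and Srebf1, the SREBP gene tied to fatty acid synthesis, 0.09 ± 0.28 (adjusted p = 0.876). Scap, the escort of the SREBP precursors, had 280.0 CPM of all counts in the GFP- and 332.0 CPM in the GFP+ poly(A) library (log2 ratio 0.25, counting interval 0.2 to 0.29).

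Of the 3 sterol efflux transporters none passed with edgeR, 1 had an unadjusted p under 0.05, DESeq2 called that gene higher and limma-voom called none. This was Abca2 (Entrez 11305, chromosome 2), an ABC transporter of endosomes and lysosomes, with 304, 64.8 and 55.8 CPM (GFP-) and 412, 123 and 97.0 CPM (GFP+). The GFP+ library was the higher within each protocol, and the single-cell protocol libraries lay below the poly(A) libraries of both populations. The log2 fold change was 0.72 ± 0.25 (95% interval 0.16 to 1.29; edgeR adjusted p = 0.0966), with 0.44 in the poly(A) pair and 0.87 in the single-cell protocol libraries. Abcg1 and Abca1, the exporters of cellular cholesterol to lipoproteins and known targets of the liver X receptors, had 0.12 ± 0.30 and -0.20 ± 0.25 (adjusted p = 0.845 and 0.664). Abcg1 stood at 169, 60.8 and 113 CPM in GFP- and 183, 75.2 and 113 CPM in GFP+ libraries, and Abca1 at 19.9, 8.12 and 5.19 CPM and 18.8, 5.81 and 5.37 CPM. Nr1h3, the gene of liver X receptor alpha and no part of the 43, rose from 1.30, 1.16 and 1.14 CPM in the GFP- to 17.5, 15.1 and 16.1 CPM in the GFP+ libraries (log2 fold change 3.75 ± 0.26, edgeR adjusted p = 7.31e-05).

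Fatty acid synthesis gave no call. Of 9 listed genes of synthesis, desaturation and elongation 6 were tested, none passed in edgeR, DESeq2 or limma-voom, none had an unadjusted p under 0.05, and all 6 intervals lay between -1 and 1. The median was -0.03 and the range -0.34 to 0.20. Acly, which makes cytosolic acetyl-CoA from citrate, stood at 243, 150 and 133 CPM (GFP-) and 234, 143 and 152 CPM (GFP+; log2 fold change 0.02 ± 0.23, 95% interval -0.49 to 0.53). The populations overlapped at nearly the same levels. Acaca, the acetyl-CoA carboxylase that commits carbon to fatty acids, had -0.34 ± 0.25, and Fasn, the fatty acid synthase, 0.20 ± 0.28. The desaturase genes Scd1 and Scd2, which resemble each other in sequence, had -0.08 ± 0.34 and -0.28 ± 0.25, and Fads1, the delta-5 desaturase, 0.20 ± 0.26. The edgeR adjusted p-values of these 5 genes lay above the threshold, the lowest being 0.442 for Acaca.

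The elongases were read from the poly(A) pair. Elovl5, which lengthens polyunsaturated chains, had 168 CPM of all counts in the GFP- and 169 CPM in the GFP+ library (log2 ratio 0.01, counting interval -0.05 to 0.07). Elovl6, which lengthens palmitate, had 15.3 and 10.4 CPM (log2 ratio -0.56, counting interval -0.78 to -0.34). Fads2, the delta-6 desaturase, had 4 and 13 counts, a log2 ratio of 1.64 whose counting interval of -0.05 to 3.72 includes 0.

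The fatty acid oxidation genes of the 43 had mostly positive estimates that did not pass. Of 8 listed 7 were tested and 6 had a log2 fold change above 0, beside 4610 of all 10523 genes tested. None of the 7 passed with edgeR in either direction, 1 had an unadjusted p under 0.05, and the median was 0.25. DESeq2 and limma-voom called 1 gene higher, Cpt1a (Entrez 12894, chromosome 19), the carnitine palmitoyltransferase of the outer mitochondrial membrane and the regulated gate of the pathway. It stood at 68.1, 54.9 and 52.0 CPM (GFP-) and 103, 97.0 and 88.8 CPM (GFP+). After TMM scaling all GFP+ libraries lay above all GFP- libraries. As CPM of all counts (115, 46.5 and 27.0 in GFP-, 179, 67.6 and 69.5 in GFP+) this held only within each protocol. The log2 fold change was 0.73 ± 0.21 (95% interval 0.26 to 1.20), with 0.60 in the poly(A) pair and 0.80 in the single-cell protocol libraries. The adjusted p was 0.0520 with edgeR, 0.00967 with DESeq2 and 0.0405 with limma-voom. Within edgeR it was 0.0473 with the stricter filter on low counts, and over all alternatives it lay between 0.00545 (block of title numbers) and 0.783 (no protocol covariate).

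The acyl-CoA dehydrogenases begin each round of oxidation and differ in the chain length they accept. Acadl, for long chains, stood at 28.5, 70.1 and 64.4 CPM (GFP-) and 31.6, 94.0 and 94.5 CPM (GFP+), with the GFP+ library higher within each protocol and a log2 fold change of 0.37 ± 0.21 (edgeR adjusted p = 0.295). Acads, for short chains, had 0.45 ± 0.27 (adjusted p = 0.340) and Acadvl, for very long chains, 0.17 ± 0.24 (adjusted p = 0.701). Acadm, for medium chains, had 544 counts in the GFP- and 453 counts (16.0 CPM of all counts) in the GFP+ poly(A) library (log2 ratio -0.32, counting interval -0.51 to -0.14). Cpt2, the transferase of the inner membrane, had 0.10 ± 0.26.

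Hadha and Hadhb encode the subunits of the mitochondrial trifunctional protein, which carries out the later steps of each round. Their start sites lie 273 bases apart on opposite strands of chromosome 5, so the windows upstream of them overlap. The Hadhb window (chr5:30155003-30155252, plus strand) is shown for this shared stretch, with the 2 GC boxes of the Hadhb window in capitals, beginning 90 and 25 bases before the start. The Hadha window (chr5:30154981-30155230, minus strand) holds 1 GC box, the one 90 bases before the Hadhb start, and ends within the other.
Hadhb: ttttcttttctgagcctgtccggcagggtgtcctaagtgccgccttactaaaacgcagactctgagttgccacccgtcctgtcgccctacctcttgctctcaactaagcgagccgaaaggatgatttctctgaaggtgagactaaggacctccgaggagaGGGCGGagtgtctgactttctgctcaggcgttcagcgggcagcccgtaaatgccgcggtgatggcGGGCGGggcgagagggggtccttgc
Hadha stood at 105, 131 and 125 CPM (GFP-) and 110, 187 and 138 CPM (GFP+), and Hadhb at 26.7, 48.3 and 26.7 CPM and 22.7, 40.3 and 27.5 CPM. After TMM scaling the GFP+ library was higher within each protocol for Hadha, while the populations overlapped for Hadhb. The log2 fold changes were 0.25 ± 0.24 and -0.18 ± 0.28 (edgeR adjusted p = 0.552 and 0.732), neither past the threshold.

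The population effect was also compared between the protocols. An interaction term of population and protocol passed for 0 of the 31 lipid genes and for 0 of all 10523 genes with edgeR (0%). At an unadjusted p under 0.05 it stood out for 0 of the 31 and 24 of all genes, and the smallest unadjusted p among the lipid genes was 0.473. The test had 2 residual degrees of freedom, and it does not show that the protocols gave equal effects.

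Levels were compared between genes per length, as RPKM (CPM divided by the gene's length in kilobases), and within a protocol. In the poly(A) libraries the highest means of the 43 genes were those of Srebf2 (81.9 RPKM), Acly (55.5), Srebf1 (48.0), Abca2 (44.5) and Scap (41.7). The ranges over these libraries, 79.2 to 84.6 RPKM for Srebf2 and 54.4 to 56.7 for Acly, did not overlap, while that of Abca2, 37.7 to 51.2, spanned those of Srebf1 and Scap. In the single-cell protocol libraries Acadvl (62 RPKM), Hadha (48.4), Acly (48.2), Scd2 (43.8) and Acadl (42.7) led, and their ranges over 4 libraries overlapped. Lengths in the single-cell protocol table stop at 3000 bases, so RPKM of longer genes there rest on a shorter length than in the poly(A) table.

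The order of genes by level differed between the protocols. Acads had a mean of 27.2 RPKM with poly(A) selection and 2.58 RPKM with the single-cell protocol, and Dhcr7 17.1 and 1.61 RPKM. In the fit, which compares each gene with itself, the protocol effect (single-cell minus poly(A)) was -3.41 on the log2 scale for both genes, with edgeR adjusted p-values of 2.33e-05 and 1.83e-05. Fdft1 went the other way, at 1.82 (adjusted p = 0.000230). The median protocol effect was -0.25 over the 31 lipid genes and -0.15 over all genes tested. It was -1.34 for the 15 lipid genes longer than 3000 bases and 0.17 for the 16 shorter ones, beside -1.0 and 0.74 for the longer and shorter of all genes tested. The rank correlation of protocol effect with gene length was -0.39 over the 31 genes and -0.62 over all genes tested, points that share their libraries. Lengths listed for the single-cell protocol stop at 3000 bases. Whether its counts of longer genes stop there as well, and the part of this in the protocol effects, was not tested. The population effect had medians of 0.02 and 0.18 in the longer and shorter lipid genes.

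**Figure D4:**
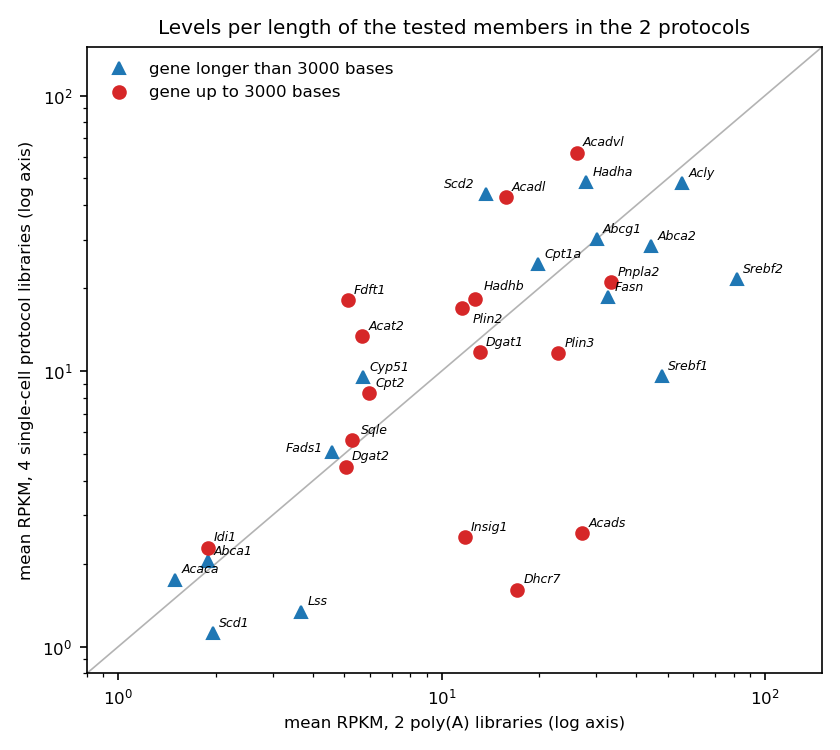
Mean level per length of the 31 tested lipid genes in the 2 poly(A) libraries (x axis) and the 4 single-cell protocol libraries (y axis), in RPKM on log axes with a line of equal values. Blue triangles are genes longer than 3000 bases, whose single-cell protocol RPKM rest on 3000 bases, and red circles the shorter ones. Acads and Dhcr7 lie far below the line, and Fdft1 lies above it.

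Other genes of the same pathways were read from 4 further lists. Of 17 tested genes of sterol synthesis, uptake and sensing (22 listed) 2 rose and none fell, with a median log2 fold change of -0.06. Both that rose are known from macrophages: Nr1h3, given above, and Apoe, the apolipoprotein E of cholesterol transport, at 6.32, 8.04 and 4.68 CPM (GFP-) and 175, 330 and 159 CPM (GFP+; log2 fold change 5.09 ± 0.40, edgeR adjusted p = 0.000128). The macrophage markers rose in the same libraries (13 of 13 tested), and their part in these rises was not tested. Mvk, the mevalonate kinase, had -0.91 ± 0.28 (adjusted p = 0.0685).

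Among 10 tested genes of fatty acid and triglyceride synthesis (18 listed) none passed with edgeR in either direction, 3 had an unadjusted p under 0.05, and the median was -0.08. Those 3 were Acss2, which makes acetyl-CoA from acetate (-0.67 ± 0.21, adjusted p = 0.0670), Elovl1, an elongase of saturated chains (0.77 ± 0.24, adjusted p = 0.0757), and Acsl3, an acyl-CoA synthetase of lipid droplets (-1.01 ± 0.34, adjusted p = 0.0906). Of 7 tested genes of lipid uptake, droplets and lipolysis (16 listed) none passed, 2 had an estimate above 0, and the median was -0.24. Angptl4, a secreted inhibitor of lipoprotein lipase, had 0.83 ± 0.28 (edgeR adjusted p = 0.0949), the 1 gene with an unadjusted p under 0.05. Of 8 further fatty acid oxidation genes tested (18 listed) 2 had an estimate above 0, and the median was -0.10. None rose and 1 fell with edgeR. This was Decr1, the mitochondrial reductase for unsaturated chains, at 14.3, 56.2 and 65.0 CPM (GFP-) and 6.71, 21.4 and 34.8 CPM (GFP+; log2 fold change -1.10 ± 0.24, edgeR adjusted p = 0.0181), each GFP+ library below each GFP- library of its protocol. Etfb, a subunit of the flavoprotein that takes electrons from the acyl-CoA dehydrogenases, also had an unadjusted p under 0.05, with 32.9, 127 and 223 CPM (GFP-) and 38.7, 383 and 291 CPM (GFP+). Its log2 fold change of 0.71 ± 0.31 did not pass (edgeR adjusted p = 0.183).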

How the data were processed

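Libraries came from poly(A) selection or a single-cell approach, per the labels' protocols. The authors deposited raw counts per Entrez gene in a table for each protocol, and log2 RPKM per library on the log2 scale that looked quantile-normalised, used here as an alternative alone. Gene lengths come from the deposited tables. The submitters' processing notes name Subread, featureCounts, edgeR and build mm9; versions, filters and strand use: not given in the sources used here.

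The 43 genes, their roles, the 4 other pathway lists and the marker lists (macrophage, dendritic cell, B cell, plasma cell, adipocyte, endothelial cell, erythroid, CD8 T and NK cell, CD4 Treg, cell cycle) were chosen with earlier results of these data known. Genes past the threshold, and those with at least 1 CPM in a poly(A) library but no single-cell protocol counts, are given with every library. The others are given by group, with further genes named after their values were seen, and up to 5 genes with the smallest p from each other pathway list.

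Tables were joined by Entrez number. Genes kept by filterByExpr (10523) were scaled by TMM (factors 2.02 and 2.06 with poly(A), 0.519 to 0.846 otherwise) and tested with edgeR 4.0.16 in R 4.3.3: a quasi-likelihood F-test over 6 libraries with protocol as covariate and 3 residual degrees of freedom, Benjamini-Hochberg over all genes. The p-values reflect only how much these samples varied. CPM use the fit's library sizes; those called CPM of all counts use library totals. The poly(A) pair has no test. Counting intervals and the limit of 3 counts cover counting error alone. They treat reads as independent molecules, which reads are not, so they may be too narrow. Alternatives were DESeq2 1.42.0, limma 3.58.1 (voom, and the log2 RPKM), other scalings and filters, no covariate, a block of title numbers, the single-cell protocol alone and each library left out. Promoter windows are from RefSeq (GRCm38.p6), with an entry for 31 genes, and overlaps from GENCODE M21. The test script was checked on simulated counts.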

Additional observations from a re-analysis of the deposited data

How the results depend on the processing

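Of 524 alternative values for the 31 tested genes, 472 kept their direction and their side of the threshold. The genes called over all genes tested (1419) numbered 2500 with no low-count filter, 717 with a stricter one (5 CPM in 3 libraries), 139 without the protocol covariate, 711 in the single-cell protocol libraries alone, and 721 to 2156 with 1 library left out (GFP+ replicate 19 for 721, GFP- replicate 20 for 742, GFP+ replicate 1 for 907 and GFP- replicate 5 for 2156). The populations share no replicate numbers, and whether neighbouring title numbers mark shared sorts is not stated. A replicate block that pairs neighbouring title numbers (1 and 2, 4 and 5, 19 and 20), fitted without the protocol term, gave 2921 genes, with 4 lipid genes higher (Plin2, Dgat1, Cpt1a, Abca2) and 1 lower (Sqle). DESeq2 and limma on the deposited log2 RPKM also gave these 4 and 1. The lipid genes called higher numbered 1 with total counts only, 0 without the covariate, 0 in the single-cell protocol libraries alone and 0 to 1 with a library left out: 0 without GFP- replicate 20, GFP+ replicate 19 or GFP+ replicate 1, and 1 (Plin2) without GFP- replicate 2, GFP- replicate 5 or GFP+ replicate 4. The cause was not tested.

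Signs changed, or an estimate rounded to 0.00, for 11 genes with estimates near 0, none of them called. Acat2 had -0.02 with RLE size factors, -0.02 with DESeq2 and -0.04 on log2 RPKM; Acly had -0.01, -0.01 and -0.05; Cyp51 had 0.03 with total counts. With a library left out, the ranges were -0.12 to 0.40 (Abcg1), -0.07 to 0.17 (Acat2), -0.04 to 0.06 (Acly), -0.10 to 0.26 (Cpt2), -0.11 to 0.02 (Cyp51), -0.02 to 0.43 (Fads1), -0.05 to 0.42 (Fasn), -0.39 to 0.06 (Hadhb), -0.40 to 0.14 (Scd1) and -0.12 to 0.30 (Srebf1). Fdft1 had 0.00 when rounded without GFP+ replicate 4, with its sign unchanged. Called genes were 72.7% higher with edgeR and 62.7% with DESeq2. Total counts moved the median of all genes from -0.08 to 0.01. In the poly(A) pair Scap had a log2 ratio of 0.29 after TMM of the poly(A) libraries alone and 0.21 with the TMM scaling of the fit. Depth limits Fads2 and Fabp4, with at most 13 counts.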
